A study of Mus musculus with 4 samples.

Results

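A set of 35 genes of endoplasmic reticulum (ER) protein folding and the unfolded protein response was listed for this account and read by symbol from the count matrices of 4 single-cell RNA libraries of mouse pancreatic islets. Of the 35 listed genes, 34 were found among the 32285 genes of the files. The remaining symbol, Vimp, is given as an older name of Selenos by the RefSeq gene table, and Selenos was itself on the list. The members were described across beta-like, alpha-like, delta-like and non-endocrine cells and across the 4 libraries.

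Secreted proteins enter the ER through a translocon, are folded there by chaperones and disulfide-forming enzymes, and are sent to the cytosol for degradation when folding fails. When unfolded proteins accumulate, 3 ER membrane sensors, Ern1 (IRE1), Eif2ak3 (PERK) and Atf6, start the unfolded protein response, which raises chaperone and degradation genes and slows translation. Beta cells make proinsulin in large amounts and depend on this machinery, and loss of PERK or of the ER membrane protein Wfs1 causes diabetes.

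The study compared islet cells of male mice aged 8 weeks in 2 pairs of libraries, with 1 library per group. In the first pair both libraries carried homozygous floxed alleles of Tet2 and Tet3, which encode enzymes that oxidise methylated cytosine in DNA. The Cre-negative library lacked the Pdx1-Cre transgene and the Cre-positive library carried it. Pdx1-Cre acts in pancreatic progenitors and so in all endocrine lineages, but not in endothelial cells or macrophages. In the second pair, control offspring had control mothers and IHG offspring had mothers of an intrauterine hyperglycaemia model, and no floxed allele or Cre is named for either. The labels name no strain. How many mice went into a library is not stated by the labels. Group, animal, cell preparation and library preparation cannot be told apart, so no test was made between libraries, and intervals given with ratios are 95% Clopper-Pearson intervals that cover counting error only.

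The libraries held 6421 to 16459 barcodes and 52489846 to 109110492 UMIs (unique molecular identifiers, 1 per captured transcript), with medians of 5334 to 7373 UMIs per barcode. Of 44834 distinct barcodes, 868 occurred in 2 or more libraries. Beta-like cells, in which all 11 beta markers reached 20 counts per 1000000 (CPM), numbered 3243 without Cre, 2726 with Cre, 10713 in control offspring and 5882 in IHG offspring. The fullest cluster of beta-like cells differed between libraries: cluster 2 held 75.5% of Cre-negative, cluster 14 held 75.1% of Cre-positive, cluster 3 held 42.3% of control and cluster 9 held 47.0% of IHG beta-like cells. In beta-like cells Tet2 stood at 46.6 (Cre-negative), 33.5 (Cre-positive), 40.3 (control) and 32.5 CPM (IHG). Tet3 stood at 34.2, 26.2, 30.15 and 25.8 CPM in the same order, so the IHG library was as low as the Cre-positive library for both. In the same cells the 10 endothelial markers summed to 19.5 to 32.6 CPM, and Gcg stood at 316, 2448, 572 and 607 CPM. Their part in the results was not tested, beyond ratios in cells low in other hormones, given below. The Tet2 and Tet3 3' tags can lie outside the floxed exons and so do not check the deletion.

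Some of the members' promoters hold a sequence bound by factors of the unfolded protein response, the pathway for which the genes were listed. The share of members with it therefore describes the list and is no independent result. The ER stress response element is CCAAT, then 9 bases, then CCACG, and is bound by ATF6 and XBP1 together with NF-Y. RefSeq promoters (250 bases before to 50 after the start, GRCm38.p6) were matched for 28 of the 34 members. The element was present on either strand in 10 of these 28 promoters (35.7%), against 37 of 27025 genes (0.137%). The 10 were those of Hspa5, Hsp90b1 (with 2 copies), Calr, Canx, Pdia6, Ero1lb, Dnajc3, Creld2, Syvn1 and Derl3. Shown here are the elements of members that the results below turn on, with 10 flanking bases, read 5′ to 3′ on the strand that carries CCAAT, with the fixed ends in capitals. The last line shows 1 of the 2 shorter CCACG matches of Herpud1, which had the largest difference in beta-like cells. Herpud1 had no match with 9 bases between the ends. In that line ATTGG, the reverse strand of CCAAT, stands before CCACG with 1 base between. That arrangement was not searched.
Hspa5, chr2:34772015-34772053, gene on the plus strand: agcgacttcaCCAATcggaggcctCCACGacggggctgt
Calr, chr8:84847065-84847103, gene on the minus strand: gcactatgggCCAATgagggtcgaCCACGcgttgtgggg
Creld2, chr15:88819510-88819548, gene on the plus strand: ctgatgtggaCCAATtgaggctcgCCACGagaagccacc
Pdia6, chr12:17266481-17266519, gene on the plus strand: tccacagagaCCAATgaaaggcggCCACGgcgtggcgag
Ero1lb, chr13:12565672-12565710, gene on the plus strand: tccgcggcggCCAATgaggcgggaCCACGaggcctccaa
Herpud1, chr8:94386371-94386399, gene on the plus strand: gcgctgattgggCCACGttggacactgac

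The 3′ end of the element alone, CCACG on either strand, was found in 23 of 28 member promoters (82.1%) and in 35.5% of all genes' promoters. The core of the unfolded protein response element, TGACGTGG, whose reverse strand contains CCACG, was found in 0 of 28 members and 0.714% of all genes. The amino acid response element core TGATGNAAN, bound by ATF4, was found in 1 member, Herpud1, and in 4.50% of all genes. A match is only a match of letters. In beta-like cells the median log2 ratio of Cre-positive to Cre-negative was 0.24 for the 9 measured members with the full element and 0.25 for the 18 without it. Herpud1 was among the 18. Other arrangements of CCAAT and CCACG were not searched, so members without the full element may hold another form.

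In beta-like cells the members together made up 0.943% of UMIs in the Cre-negative library, 1.35% in the Cre-positive library, 1.17% in control offspring and 1.02% in IHG offspring. This sum leans on the abundant members. Among these, Hspa5, Herpud1 and Calr differed between the Cre libraries, and Hsp90b1 and Ero1lb hardly did. The Cre-positive library was the highest of the 4 for 24 of the 34 members, and the Cre-negative library the lowest for 15. The ratio of the highest to the lowest library ranged from 1.07 to 3.68 over the members with a median of 1.45, and it was 1.5 or more for 15. The other members varied less than 1.5-fold between any of the libraries. These counts were not set beside the same counts for all genes, so they describe the members only.

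**Figure D1:**
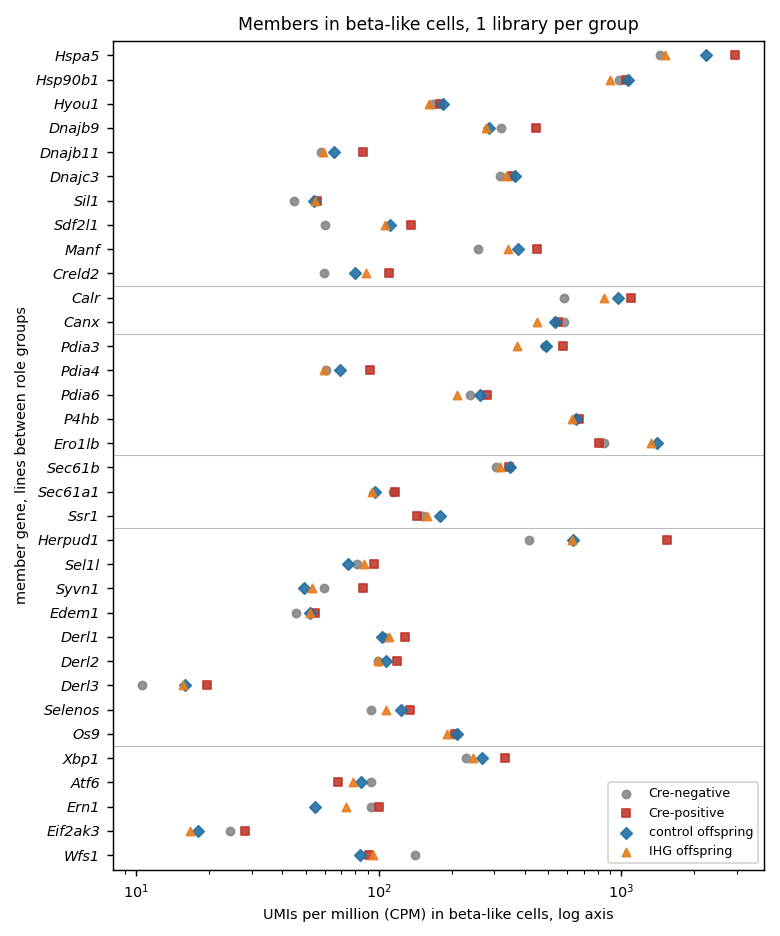
Level of each of the 34 members (rows, grouped by role) in beta-like cells, in CPM on a log axis, with 1 point per library. Herpud1 stands at 1540 CPM in the Cre-positive library and at 418 to 631 CPM in the others, while members such as Hsp90b1 and P4hb lie close together.

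Between the Cre libraries, members were counted as higher or lower in beta-like cells where the CPM ratio was at least 1.5-fold and the gene reached 20 CPM in either library. By this rule 7 of 33 measured members were higher in the Cre-positive library, against 6.92% of all 6461 genes measured, and 1 was lower, against 19.9%. The members' median log2 ratio was 0.25, against -0.22 for all genes, and 28 of 33 members lay above 0. The only member not measured was Derl3, a derlin of professional secretory cells, at 10.6 and 19.5 CPM. Just inside the rule was Pdia4 at 1.52-fold. Dnajb11, a DNAJ cochaperone at 58.0 and 86.5 CPM, did not reach it. Scaling mattered for this count: with median-of-ratios size factors, which put the median of all genes near 0, 12 members were higher and 0 lower, beside 12.1% and 10.1% of all genes. In beta-like cells with at most 1% of UMIs from other hormones, the same 7 members were past the rule as higher. Derl3 passed it there too, at 1.83-fold, and Wfs1, the lower member, was 1.49-fold lower and no longer past it.

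Among HSP70 and HSP90 chaperones and their cochaperones, 4 of 10 were higher and 0 lower, with a median log2 ratio of 0.53. Hspa5, which encodes BiP, the main ER chaperone and a brake on the 3 sensors, stood at 1447 CPM (Cre-negative), 2946 CPM (Cre-positive), 2241 CPM (control offspring) and 1522 CPM (IHG offspring). Its Cre-positive level was 2.04-fold (2.01 to 2.06) the Cre-negative level, and the Cre-negative and IHG libraries were its lowest. Sdf2l1, a component of a BiP complex that keeps substrates soluble, stood at 59.8, 136, 112 and 106 CPM in the same order of libraries. Sdf2l1 was thus 2.28-fold (2.16 to 2.40) higher with Cre, and the Cre-negative library stood apart below the other 3. Creld2, a small disulfide-rich ER protein, stood at 59.5, 111, 79.9 and 88.6 CPM. Manf, a secreted factor that stabilises BiP complexes, stood at 257, 449, 375 and 343 CPM. Creld2 was 1.86-fold (1.76 to 1.96) and Manf 1.75-fold (1.70 to 1.80) higher with Cre. Hsp90b1, the ER HSP90 (GRP94), was at 982, 1046, 1069 and 896 CPM, so this second most abundant chaperone of the group hardly differed. The other 5 members, Hyou1, Dnajb9, Dnajb11, Dnajc3 and Sil1, had log2 ratios between 0.09 and 0.58.

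Of the lectin chaperones, which hold glycoproteins for folding, the soluble Calr differed and its membrane-bound relative Canx hardly did. Calr stood at 581, 1098, 973 and 852 CPM (Cre-negative, Cre-positive, control, IHG) and was 1.89-fold (1.86 to 1.93) higher with Cre. Canx stood at 584, 550, 533 and 452 CPM. The Cre-negative library alone was low for Calr, whereas for Canx it was the highest.

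Of the 5 disulfide enzymes, 1 was higher and 0 lower. Pdia4, a protein disulfide isomerase, stood at 60.8, 92.2, 69.5 and 59.8 CPM. Pdia3, the isomerase that works with Calr and Canx, was at 484, 575, 488 and 373 CPM. P4hb, the classical protein disulfide isomerase, was at 654, 674, 652 and 630 CPM. Ero1lb, the pancreas-enriched oxidase that recharges these isomerases, divided the libraries otherwise. It stood at 849 and 810 CPM in the Cre-negative and Cre-positive libraries and at 1403 and 1326 CPM in the control and IHG offspring libraries. Ero1lb therefore differed between the pairs of libraries and little within them.

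The 3 translocon members were flat. Sec61b, a subunit of the channel, stood at 305, 346, 347 and 316 CPM. Sec61a1, its pore, stood at 114, 117, 96.3 and 93.8 CPM. Ssr1, of the associated TRAP complex, stood at 153, 144, 180 and 158 CPM.

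Of the 8 measured members of ER-associated degradation, 1 was higher. Herpud1, an ER membrane protein that organises the degradation complex and a target of ATF4, ATF6 and XBP1, stood at 418 (Cre-negative), 1540 (Cre-positive), 631 (control) and 625 CPM (IHG). It was 3.68-fold (3.62 to 3.75) higher with Cre, the largest ratio of any member. The Cre-positive library stood farthest from the others, and the Cre-negative library was the lowest. Os9, a lectin that selects substrates, was at 204, 207, 210 and 191 CPM. Selenos, a selenoprotein of the same complex, was at 93.4, 135, 124 and 108 CPM. Syvn1, the ubiquitin ligase (HRD1) at the centre of the complex, was at 59.3, 86.1, 49.0 and 53.3 CPM. The remaining Sel1l, Edem1, Derl1 and Derl2 had log2 ratios between 0.22 and 0.29.

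Of the 5 sensors and regulators, Wfs1 was lower and none was higher by the rule. Wfs1, an ER membrane protein mutated in Wolfram syndrome, stood at 141, 90.9, 83.8 and 95.1 CPM and was 1.55-fold (1.48 to 1.62) lower with Cre. It was the Cre-negative library that was high, and the Cre-positive level lay within the range of the offspring libraries. Xbp1, the transcription factor spliced by IRE1, stood at 229, 334, 266 and 244 CPM. Its splicing cannot be read from 3' counts. Atf6 was at 93.1, 67.9, 84.5 and 78.3 CPM, Ern1 at 92.9, 100, 54.6 and 73.4 CPM, and Eif2ak3 at 24.3, 28.2, 18 and 16.6 CPM. None of the 3 sensor genes was 1.5-fold apart between the Cre libraries.

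The control offspring library, which had neither the floxed alleles nor maternal hyperglycaemia named for it, also differed from the Cre-negative library. Of 33 measured members in beta-like cells 5 were higher (background 3.69% of 6336 genes) and 2 lower (19.4%), with a median log2 ratio of 0.14 against -0.29 for all genes. Both comparisons share the Cre-negative library. In them Hspa5 had log2 ratios of 1.02 (Cre-positive) and 0.63 (control offspring), Calr 0.92 and 0.74, Sdf2l1 1.19 and 0.90, Wfs1 -0.63 and -0.75, and Herpud1 1.88 and 0.59. With control offspring as the reference for the Cre-positive library, Herpud1 was 2.44-fold (2.41 to 2.47), Ern1 1.83-fold (1.75 to 1.92), Syvn1 1.76-fold (1.67 to 1.84), Eif2ak3 1.57-fold (1.44 to 1.70) and Dnajb9 1.57-fold (1.53 to 1.60) higher, and Ero1lb 1.73-fold (1.71 to 1.76) lower. Against that reference Hspa5, Calr, Sdf2l1, Manf, Creld2 and Pdia4 were under 1.5-fold. Herpud1 was thus past the rule against either reference library. The share of all genes past the rule for Cre-positive against control offspring is not given here. These ratios therefore describe single members and do not set them apart from other genes.

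**Figure D2:**
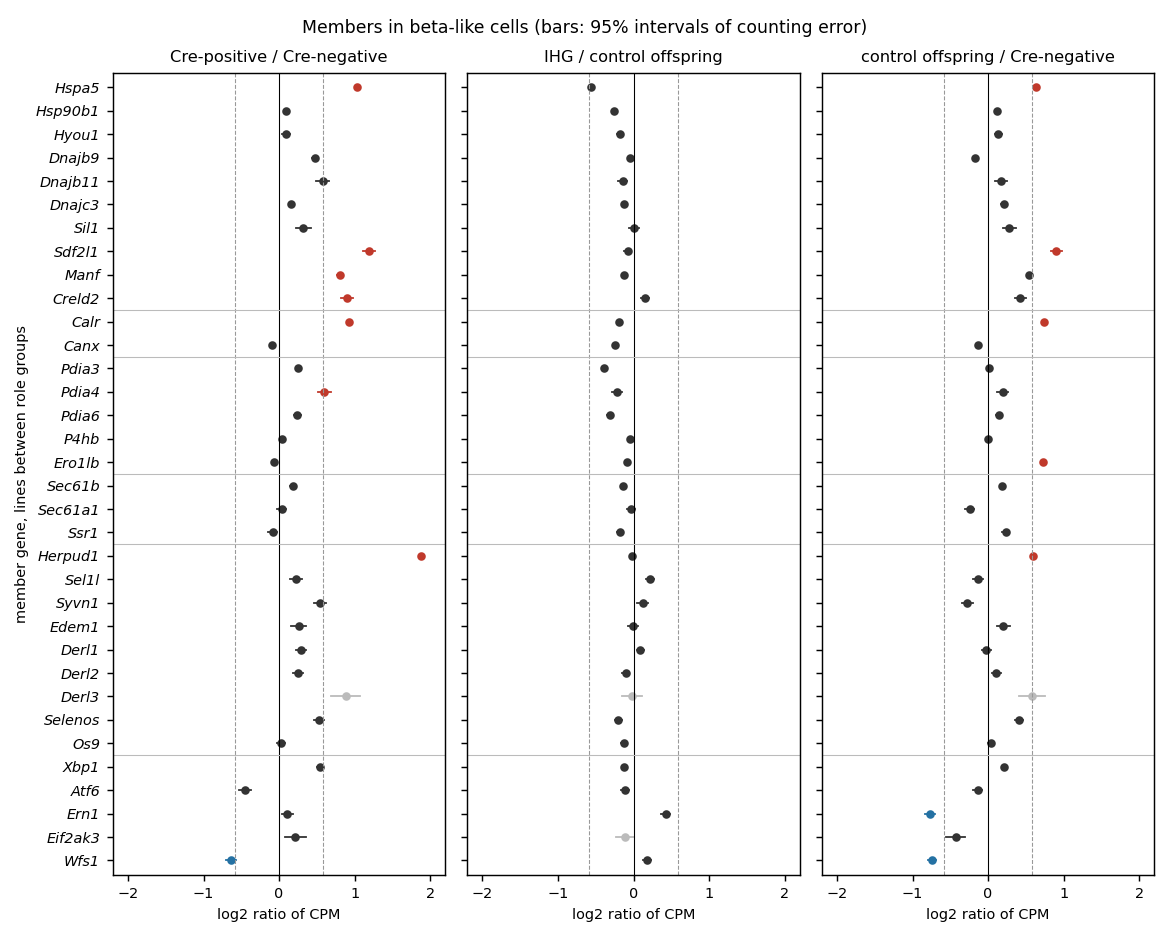
Log2 ratio of CPM of each member in beta-like cells for the Cre libraries, the offspring libraries and control offspring against Cre-negative, with 95% intervals of counting error. Red and blue points are at least 1.5-fold higher and lower (dashed lines), and grey ones did not reach 20 CPM. The offspring panel has no coloured point, and Herpud1 is the farthest point of the Cre panel.

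In IHG against control offspring, 0 of 32 measured members were higher and 0 lower in beta-like cells, against 0.543% and 0.707% of 5520 genes. The median log2 ratio of the members was -0.12, against -0.06 for all genes, and 7 of 32 lay above 0. Hspa5 came closest to the rule with a log2 ratio of -0.56, from 2241 to 1522 CPM. Pdia3, Pdia6, a disulfide isomerase that attenuates IRE1, and Hsp90b1 followed at log2 ratios of -0.39, -0.32 and -0.25. At the other end Ern1 was at 0.43 and Sel1l, the adaptor of the degradation complex, at 0.22.

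The differences were spread over the cells of the class. The median member share per beta-like cell was 0.919% (Cre-negative), 1.34% (Cre-positive), 1.13% (control) and 1.00% (IHG). Of Cre-positive beta-like cells, 91.9% lay above the Cre-negative median, and 87.1% did with each cell thinned to 2000 UMIs, for which 129 of 2726 Cre-positive and 114 of 3243 Cre-negative cells were too shallow. Of IHG beta-like cells 31.7% lay above the control median (29.7% thinned). Cells are not replicates, and these shares describe the libraries. Like the summed share, they lean on the abundant members.

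The differences also lay within clusters, which had been formed without the members. Hspa5, Herpud1, Calr and Sdf2l1 were each higher in Cre-positive than Cre-negative cells in 6 of 6 beta-like clusters, and Wfs1 was lower in 6 of 6. In the cluster these libraries shared most (413 and 234 cells), Herpud1 stood at 1241 against 553 CPM and Hspa5 at 2593 against 1438 CPM. Hspa5 and Calr were lower in IHG than control cells in 6 of 6 clusters, most of all for Hspa5 in cluster 9, which held the largest share of IHG cells, with 873 against 1533 CPM. There Hspa5 was past 1.5-fold, the only member to be so. Herpud1, equal between the offspring libraries over all beta-like cells, was higher in IHG cells in 5 of 6 clusters, such as cluster 3 with 642 against 413 CPM. The 6 clusters differed in size between the libraries, down to 25 cells, so these are directions only.

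**Figure D3:**
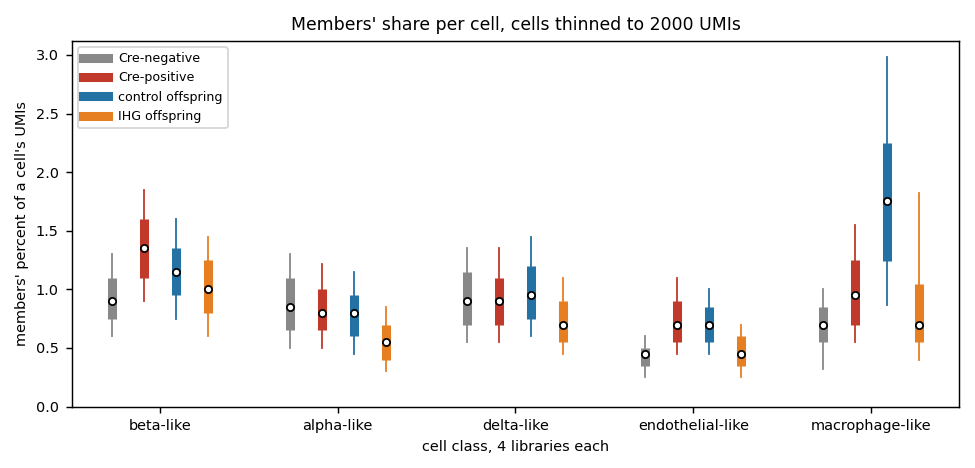
Share of each cell's UMIs that came from the members, by class and library, with every cell thinned to 2000 UMIs. Circles are medians, thick bars the 25th to 75th percentile and thin lines the 10th to 90th percentile. In beta-like cells the Cre-positive library is highest, and in endothelial-like cells the Cre-positive and control libraries lie above the other pair.

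Endothelial-like cells, a lineage outside that of Pdx1-Cre, had larger ratios than beta-like cells for several members, and that difference between classes was not tested. Hspa5 stood at 624 (Cre-negative), 2050 (Cre-positive), 2090 (control) and 745 CPM (IHG). It was 3.29-fold (2.95 to 3.67) higher with Cre and 2.80-fold (2.66 to 2.96) lower in IHG than in control offspring. Calr stood at 311, 913, 729 and 499 CPM, Herpud1 at 254, 533, 592 and 284 CPM, Dnajb9, a cochaperone (ERdj4) that returns BiP to IRE1, at 174, 422, 319 and 154 CPM, and Xbp1 at 103, 221, 231 and 130 CPM. For these 5 members the Cre-positive and control libraries were the high pair and the Cre-negative and IHG libraries the low pair. The class came from different clusters by library: cluster 4 held nearly all cells without Cre (199 of 201) and of IHG offspring (764 of 813), but 1246 of 1726 with Cre and 574 of 1154 of control offspring. Cluster 16, led by the pericyte gene Rgs5, held 579 control and 2 Cre-negative cells, and cluster 17 held 333 Cre-positive and 0 Cre-negative cells. Within cluster 4 alone Hspa5 stood at 627, 2159, 1926 and 711 CPM and Herpud1 at 257, 570.3, 625 and 271 CPM. Calr stood at 311, 949.8, 657 and 483 CPM in that cluster. Mesenchymal markers summed to 33.5, 303.8, 2302 and 134.5 CPM in cluster 4, so it too differed between libraries. Their part in these levels was not tested. Of 32 measured members 10 were higher (background 14.7%) and 3 lower (30.9%) with Cre, with a median log2 ratio of 0.41 against -0.27 for all genes. The others higher were Selenos, Ero1lb, Manf, Pdia3 and Pdia6, and the lower ones Derl2, a derlin of the degradation channel, Sil1, a nucleotide exchange factor of BiP, and Wfs1. For Ero1lb, Sil1 and Wfs1 the counting interval reached past 1-fold, since the Cre-negative class held only 201 cells. In IHG against control offspring 5 of 31 were lower (background 10.9%), namely Hspa5, Herpud1, Dnajb9, Ero1lb and Xbp1, and 1, Derl2, was higher (background 11%).

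Beta markers summed to 4516, 6097, 24450 and 19460 CPM in endothelial-like cells of the 4 libraries, 1.68% to 7.03% of their sum in beta-like cells, and 4 to 10 of the 11 markers reached 20 CPM. Only Pdx1, in the Cre-negative library, was at 0. Insulin RNA in these cells was 1.72%, 1.94%, 7% and 5.10% of its beta-like level. Mesenchymal markers summed to 8076 CPM in the control library and to 163 to 1390 CPM in the others. Erythroid markers summed to 0, 1857, 368 and 619 CPM, with all 6 at 0 in the Cre-negative library. The part of these RNAs in the members' levels was not tested. In cells with at most 1% of UMIs from hormone genes, Hspa5 stood at 593, 2049, 2121 and 724 CPM.

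In alpha-like cells the Cre-negative library differed from the rest, with Gcg at 105200 CPM against 281400 to 343200 CPM and 722 of its 1016 cells in a cluster of its own. Between the Cre libraries 3 of 32 members were higher (background 4.53%) and 3 lower (38.9%), with a median log2 ratio of -0.21 against -0.48 for all genes. Herpud1, at 339, 744, 664 and 306 CPM in the 4 libraries, was 2.19-fold (2.09 to 2.30) higher with Cre. Sdf2l1 and Creld2 were 1.82-fold (1.55 to 2.14) and 1.68-fold (1.47 to 1.92) higher. Ssr1, Os9 and Pdia6 were 1.75-fold, 1.69-fold and 1.67-fold lower. With median-of-ratios scaling 11 members were higher and 0 lower, beside 11.5% and 7.95% of all genes. In IHG against control offspring 0 of 32 were higher (background 1.41%) and 3 lower (6.82%): Hspa5 at 819 against 1947 CPM, Herpud1 at 306 against 664 CPM and Ero1lb at 88.1 against 165 CPM. Hspa5 was 2.38-fold (2.31 to 2.45) lower. In alpha-like cells with at most 1% of UMIs from other hormones, Ero1lb stood at 83.1 against 96.7 CPM, and Hspa5 at 821 against 1976 CPM. Beta markers summed to 4760, 9347, 27580 and 4986 CPM in alpha-like cells of the 4 libraries, and their part in the Ero1lb level was not tested further. Of IHG alpha-like cells, 13.6% had a member share above the control median (12.7% thinned).

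In delta-like cells, Herpud1 stood at 500, 931, 825 and 531 CPM and Hspa5 at 1500, 1738, 2180 and 1000 CPM (Cre-negative, Cre-positive, control, IHG). Between the Cre libraries 3 of 33 members were higher (background 9.68%), namely Ero1lb, Eif2ak3 and Herpud1, and 3 lower (13.3%), namely Ssr1, Ern1 and Wfs1. In IHG against control offspring 7 of 33 were lower (background 5.72%) and 1, Ern1, was higher (4.66%). The lower ones were Ero1lb, Hspa5, Dnajb11, Sdf2l1, Manf, Derl2 and Herpud1. Beta markers moved with these results: they summed to 15940, 55270, 160400 and 33100 CPM in delta-like cells, and insulin RNA was 3.53%, 15.6%, 43.9% and 5.79% of its beta-like level. Ero1lb, at 58.2, 125, 616 and 87.8 CPM over all delta-like cells, stood at 33.5, 26.3, 54.4 and 27.1 CPM in the 467, 407, 304 and 878 cells with at most 1% of UMIs from other hormones. In those cells only Hspa5 (913 against 1402 CPM) and Ero1lb, of the 7 members lower in IHG offspring, were still past the rule. Dnajb11, Manf, Herpud1 and Derl2 were 1.40-fold, 1.25-fold, 1.30-fold and 1.16-fold lower, and Sdf2l1 was at 43.2 against 30.5 CPM. Ern1, higher over all cells, was 1.37-fold higher, and Pdia4, Dnajb9, Edem1 and Eif2ak3 were past the rule as lower instead. Between the Cre libraries Ero1lb and Wfs1 were no longer past the rule in those cells, and Dnajb11 and Atf6 were past it as lower instead.

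**Figure D4:**
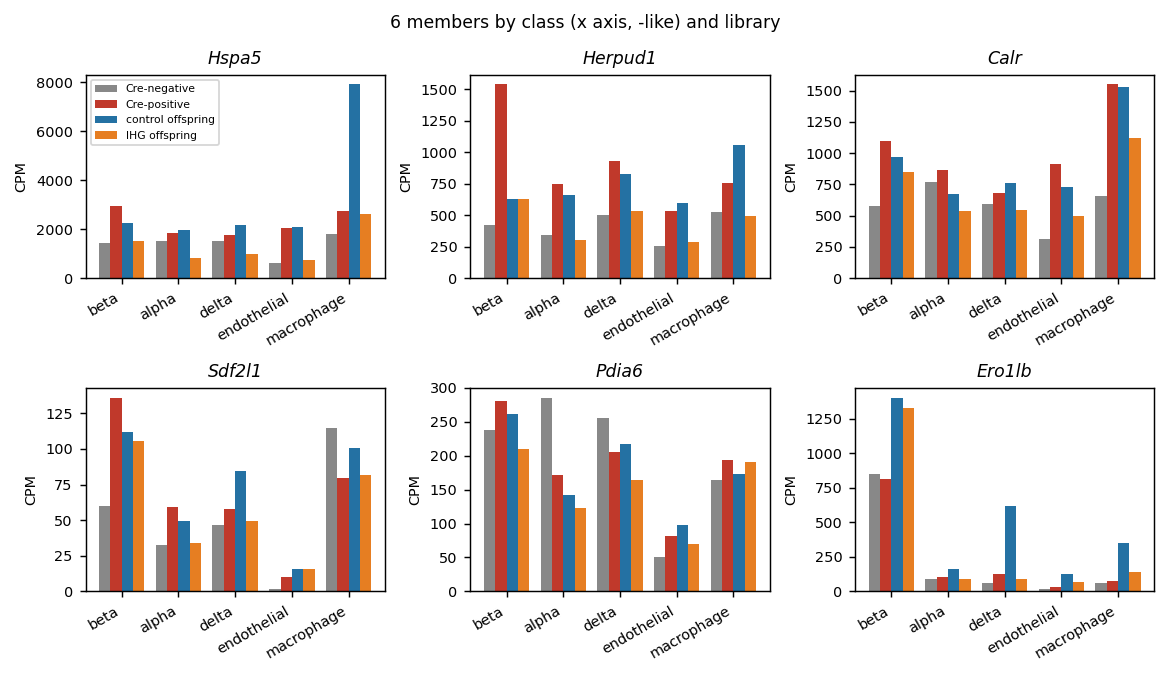
Level of 6 members in CPM by cell class and library, with bars from 0. Hspa5 is high in the Cre-positive and control libraries of endothelial-like cells, Herpud1 peaks in Cre-positive beta-like cells, and Ero1lb is high in beta-like cells and in control delta-like cells, whose insulin RNA is also high.

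Macrophage-like cells were few in 3 of the libraries, with 63 (Cre-negative), 690 (Cre-positive), 51 (control) and 158 (IHG) cells. Hspa5 stood at 1783, 2748, 7912 and 2606 CPM there, and its 7912 CPM in control offspring was the highest level of any member in any of the 5 classes. It rests on 51 cells, whose cluster stayed unnamed at 11.9% hormone UMIs when that library was clustered on its own. Calr stood at 657, 1552, 1533 and 1123 CPM. Beta markers summed to 46400 CPM in the control library of this class, and 5526 to 36840 CPM in the others.

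Across classes the library served as the unit of replication, and edgeR's quasi-likelihood test, with the library as a block and Benjamini-Hochberg adjustment over 13423 genes, compared beta-like cells with the other classes. Against alpha-like cells 25 of 34 members were higher in beta-like cells and 0 lower, beside 25.8% and 19.5% of all genes. Against delta-like cells 20 were higher and 0 lower, beside 20.8% and 15.2%. Against endothelial-like cells 32 were higher and 0 lower, beside 41% and 34.5%. Median log2 ratios of the members were 0.58, 0.48 and 1.00, against 0.05, 0.08 and 0.15 for all genes. At an unadjusted p under 0.05, 29, 24 and 32 members passed. With the library as a block, a shift shared by all classes of a library does not enter these p-values. They rest on how far the differences between classes varied over the 4 libraries, which differ in genotype and maternal exposure. That spread was estimated over all classes with enough cells in every library. PP-like and macrophage-like cells were among these, the latter with only 51 cells in control offspring. These log2 ratios are scaled by TMM, which sets most genes level between classes, and so differ from ratios of CPM, where hormone RNA takes part of the total. Without the IHG library 16 members passed against alpha-like cells and 12 against delta-like cells.

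Ero1lb was the member with the greatest difference from both other endocrine classes, with a log2 ratio of 3.48 (SE 0.35) against alpha-like, 3.12 (SE 0.35) against delta-like and 4.70 (SE 0.38) against endothelial-like cells (edgeR adjusted p = 3.78e-08, 3.82e-07 and 2.53e-10). Its level in beta-like cells was above that in alpha-like and delta-like cells in 4 of 4 libraries. Derl3, the derlin of secretory cells, stood at log2 ratios of 2.12, 1.86 and 5.18 in the same order, though its level was low, at 10.6 to 19.5 CPM in beta-like and 0.0 to 1.83 CPM in endothelial-like cells. Wfs1 was 2.13 (SE 0.15) higher on the log2 scale than in alpha-like cells (edgeR adjusted p = 2.18e-10), and 0.03 (SE 0.14) against delta-like cells (adjusted p = 0.903). Its CPM in beta-like and delta-like cells ran from 83.8 to 141 and from 92.1 to 177, and from 22.5 to 31.2 in alpha-like cells. Edem1, a mannosidase-like protein that marks glycoproteins for degradation, stood at log2 ratios of 2.18 against alpha-like and 0.75 against delta-like cells (adjusted p = 4.96e-09 and 0.00202), and 0.21 against endothelial-like cells (adjusted p = 0.305).

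By role, most degradation genes separated beta-like from alpha-like cells: Herpud1, Sel1l, Edem1, Derl1, Derl2, Derl3 and Selenos passed, at log2 ratios of 0.47 to 2.18, and Syvn1 and Os9 did not, at 0.09 and 0.09. Of the 3 chaperones highest in CPM in beta-like cells, Calr passed against delta-like cells, at 0.70 (SE 0.19, adjusted p = 0.00622), and not against alpha-like cells, at 0.41 (SE 0.19, adjusted p = 0.0844). Hspa5 and Hsp90b1 passed against neither. Hspa5 was at 0.57 (SE 0.25) against alpha-like and 0.63 (SE 0.25) against delta-like cells (edgeR adjusted p = 0.070 and 0.0538). Hsp90b1 was at 0.28 (SE 0.15) and -0.06 (SE 0.15), with adjusted p of 0.138 and 0.791. Of the sensors, Ern1 and Eif2ak3 did not pass against alpha-like or delta-like cells, and Eif2ak3 was the only member with a log2 ratio under 0 against alpha-like cells, at -0.30 (SE 0.15, adjusted p = 0.119). Against endothelial-like cells, Sel1l and Edem1 were the 2 members that did not pass.

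**Figure D5:**
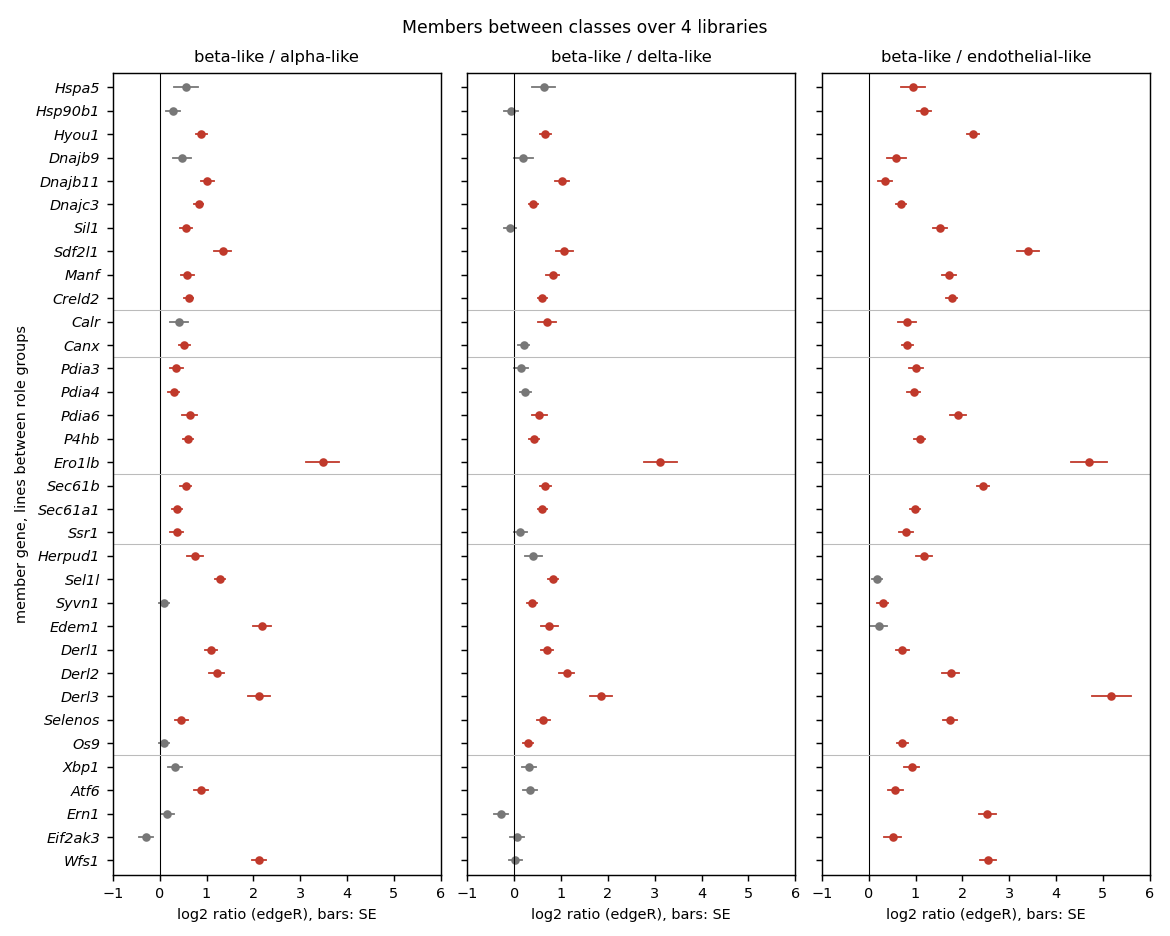
Log2 ratio of each member between beta-like and 3 other classes over 4 libraries, from edgeR, with 1 SE on each side. Red points have an adjusted p under 0.05. All red points lie above 0, and Ero1lb and Derl3 lie farthest to the right against endothelial-like cells.

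Other genes of the pathway were read from 7 further lists. In beta-like cells between the Cre libraries, other ER folding and redox enzymes had 1 of 34 measured genes higher, Erp29 at 1.51-fold, and 6 lower, led by Uggt2 (2.18-fold), Dnajc10 (1.88-fold) and Prdx4 (1.81-fold), with a median log2 ratio of -0.20. Translocation, signal peptidase and oligosaccharyltransferase genes had 0 of 30 higher and 0 lower (median 0.07). Other degradation genes had 2 of 25 higher (Ube2g2 and Stub1, ubiquitin-conjugating and ligating enzymes) and 4 lower (among them Erlin2, Jkamp and March6), with a median of -0.37. Other sensors and regulators had 1 of 15 higher, the transcription factor Creb3l1 at 1.71-fold, and 3 lower, Map3k5, Scap and Mbtps1 (median -0.16). ER to Golgi transport had 0 of 28 higher and 2 lower, Sec24b and Copb1 (median -0.04). The median of all genes in that comparison was -0.22.

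The remaining lists, the integrated stress response, which PERK and other kinases can start, and the cytosolic chaperones, stood apart from these. The integrated stress response had 19 of 27 higher and 1 lower, Ddit4 at 5.70-fold, with a median of 1.17. Its highest ratios were those of Nupr1 (41.6-fold, 31.3 to 56.6), Trib3 (20.6-fold) and Chac1 (12-fold). Cytosolic chaperones had 15 of 27 higher and 0 lower, with a median of 0.85, led by Bag3 (12.9-fold), Hsph1 (6.24-fold) and Dnaja1 (3.75-fold). Many of these genes answer to ATF4 or to heat shock factor, and they are not confined to the ER. Whether any of the kinases acted was not tested.

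In IHG against control beta-like cells, 3 of 20 integrated stress response genes were lower (Ddit4, Atf3 and Ppp1r15a, at 1.87-fold, 1.77-fold and 1.60-fold) and 1 of 27 cytosolic chaperones (Dnajb1, 1.51-fold), and 0 genes of the other 5 lists were past the rule. In other classes the cytosolic chaperones differed in the direction of Herpud1. They had 16 of 27 higher in alpha-like, 18 in delta-like and 22 in endothelial-like cells with Cre, and 0 lower in each. In IHG against control offspring they had 15, 11 and 13 of 27 lower and 0 higher. Between control offspring and Cre-negative, 9 were higher in beta-like, 15 in alpha-like (background 4.36%), 14 in delta-like (7.41%) and 17 in endothelial-like cells (15.7%). In that comparison 2 were lower in alpha-like cells (37.3%) and 0 in delta-like (17%) and endothelial-like cells (25.5%). The part of these genes' common shift in the levels of the members was not tested.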

How the data were processed

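Islet cells were profiled on the SeekOne MM microwell 3' platform after collagenase digestion, density gradient, hand picking, culture and trypsin, per the labels' protocols. The authors deposited raw UMI counts per gene and barcode, not normalized. The submitters' processing notes list Cell Ranger, Seurat and the mm10 build. Their versions, the annotation, the rule for keeping barcodes and any use of the strand are not stated there, so overlapping genes could share reads. A symbol on several identifiers was read from the one that GENCODE pairs with it.

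A cell needed 500 detected genes and no more than 20% mitochondrial UMIs, and the 6% with the highest Scrublet scores were removed from each library, since the automatic threshold marked 0% to 4.39%. This left 5572 (Cre-negative), 9012 (Cre-positive), 14807 (control) and 11222 (IHG) cells. They were clustered together (scanpy 1.11.5, 2000 variable genes without members and pathway lists, 30 components, 15 neighbours, Leiden resolution 1). Clusters were named from 15 marker lists by mean log2 over a typical cluster with 5 CPM added, where the score was at least 1 and led by 0.9, 3 markers reached 20 CPM, and the 10 leading genes held no more markers of another class. Non-endocrine clusters with over 10% hormone UMIs stayed unnamed. The lead and the hormone limit were set after clusters had been seen. Unnamed clusters held 7, 792, 353 and 263 cells, and PP-like and mesenchymal-like cells are not described.

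For every class of a library, UMIs were added up and divided by their total (CPM). A UMI count needs no length correction in 3' libraries. Ratios have exact conditional binomial intervals, whose coverage was checked on simulated data. A count of 0 was set to 3 UMIs in a ratio. Class tests used edgeR 4.0.16 (R 4.3.3, TMM, filterByExpr, classes with 50 or more cells in every library), also tested on simulated data, with DESeq2 1.42.0 as an alternative. Members with full values were those past 1.5-fold in beta-like cells and the 3 highest in CPM of each role group, with others by range, count or because a result turns on them. The members and lists were chosen with earlier results of these data known. Protein sequences were not analysed here.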

Additional observations from a re-analysis of the deposited data

Results flagged for a closer look

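A pair of members lay past 1.5-fold in opposite directions in 2 classes under the same comparison. Pdia6 had a log2 ratio of Cre-positive to Cre-negative of -0.74 in alpha-like cells and 0.67 in endothelial-like cells. In endothelial-like cells with at most 1% of UMIs from hormones it was 1.44-fold higher and so not past the rule. Derl2 had a log2 ratio of IHG to control offspring of -0.71 in delta-like cells and 0.60 in endothelial-like cells. In delta-like cells with at most 1% of UMIs from other hormones it was 1.16-fold lower, also not past the rule. The differences between classes were not tested, since each rests on 1 library per group. The counting intervals in endothelial-like cells were wide, at 1.08 to 2.42-fold for Pdia6 and 1.15 to 1.99-fold for Derl2.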

How the results depend on the processing

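Numbers of members past 1.5-fold depended on scaling and on the reference library. The counts in this section have no share of all genes beside them. They show how the calls moved, not whether members differed from other genes. In alpha-like cells many genes were lower against the Cre-negative library: 37.3% in control offspring and 38.9% in the Cre-positive library. With median-of-ratios scaling the members higher with Cre came to 12 in beta-like, 11 in alpha-like, 5 in delta-like and 17 in endothelial-like cells, those lower to 0, 0, 1 and 1, and endothelial-like cells of IHG offspring had 0 higher. With totals that left out hormone and mitochondrial genes, 12 were higher and 0 lower with Cre in beta-like cells, and 8 and 0 in alpha-like cells. With control offspring as the reference for Cre-positive cells, 0 were higher and 1 lower in alpha-like, 1 and 1 in delta-like, and 1 and 1 in endothelial-like cells; for beta-like cells, Wfs1 turned to a log2 ratio of 0.12. With Cre-negative as the reference for IHG offspring, 2 members were higher in beta-like cells, 12 lower in alpha-like cells, and 3 higher and 1 lower in endothelial-like cells. These changes of reference, apart from that for Cre-positive beta-like cells, and the next 2 alternatives were chosen after seeing the data. With the insulin-rich endothelial cluster of 280 cells kept, 7 were higher and 2 lower in IHG endothelial-like cells. In endothelial cluster 4 alone, 12 were higher and 3 lower with Cre, and 1 higher and 6 lower in IHG.

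With each library clustered on its own, alpha-like cells had 5 higher and 1 lower with Cre and 6 lower in IHG, beta-like cells 0 lower with Cre, and endothelial-like cells 0 higher in IHG. Control offspring then had no delta-like cluster, and no macrophage-like one, so delta-like IHG ratios could not be had and the delta-like test held 3 libraries. With variable genes from all genes, 6 were lower in IHG alpha-like cells and 5 higher with Cre in delta-like cells. With no doublets removed, IHG delta-like cells had 0 higher and 2 lower and IHG endothelial-like cells 0 higher. With thinned cells, alpha-like cells had 5 lower with Cre and 5 lower in IHG, and IHG delta-like cells 4 lower. In the cluster shared most, beta-like cells had 0 lower with Cre and 1 lower in IHG. With at most 1% of other hormones, 0 were lower with Cre in beta-like and 0 higher in IHG delta-like cells. With no filter on low genes, 2 were higher in IHG endothelial-like cells. The cause of these changes was not tested.

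In the class tests, 12 members were higher than in delta-like cells with no replicate block, and 1 was lower than in alpha-like cells with DESeq2 and with at most 1% of other hormones. Leaving out 1 library gave 16 to 28 members higher and 0 to 1 lower against alpha-like, 12 to 20 higher against delta-like and 28 to 31 higher against endothelial-like cells. The lowest against the endocrine classes came without the IHG library. Over all alternatives, called members stayed past the threshold of a class test in 666 instances and lost it in 104. Their beta-like library ratios stayed within counting error in 43 instances, moved in 36 and turned in 1. The search of protein ends was not run.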
